A study of Drosophila melanogaster with 26 samples.

Results

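The chorion protein genes of the Drosophila melanogaster ovary were followed in the RNA-seq tables of germline NSL1, NSL2 and NSL3 RNAi. The 9 genes were taken by name and were all present, out of 15342 genes in each table. Cp36, Cp38, Cp7Fa, Cp7Fb and Cp7Fc form a cluster on the X chromosome, and Cp15, Cp16, Cp18 and Cp19 form a cluster on chromosome arm 3L. NSL1, NSL2 and NSL3 are subunits of the NSL complex, a chromatin complex that activates transcription, and the study asked what it does in the female germline.

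In every group, nanos-GAL4 drove a hairpin. This driver is active in germ cells and not in the somatic follicle cells around them. NSL1 RNAi used Bloomington line 58328, NSL2 RNAi used Bloomington line 58162, NSL3 RNAi used the line labelled Vienna 108002, and the control was a hairpin against white (Bloomington 35573), the eye pigment gene. For NSL3 RNAi, the study's list of fly lines names a Vienna stock other than the one in this label. Each group had 3 libraries of ribosome-depleted total RNA from whole ovaries of females kept on yeast. The study's methods describe the replicates as separate crosses, but the sample labels number only the first of them, so the p-values below measure the spread between these libraries, whatever its source. The ovaries of NSL1 and NSL3 RNAi females are described as rudimentary, and the control named for them, ovaries of virgin white RNAi females, was not analysed here. All comparisons therefore use the same 3 nonvirgin white RNAi libraries, whose reads are identical in the 3 tables.

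The chorion is the outer, patterned layer of the insect eggshell. It is secreted at the end of oogenesis by the follicle cells, after these cells have laid down the inner layer, the vitelline membrane. Both clusters are classic developmental amplicons: follicle cells replicate them repeatedly, without replicating most of the genome, before the genes are transcribed at a very high rate. Transcription then follows a fixed order, in which Cp36 and Cp38 come early, Cp16 and Cp19 follow, and Cp15 and Cp18 are among the last. Chorion RNA in a whole ovary thus depends on how many egg chambers are in the last stages. In such bulk samples, fewer cells of a type and less RNA per cell cannot be told apart.

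Between 12482452 and 23021900 reads per library were assigned to genes and repeats. Calls are adjusted p below 0.05 with an absolute log2 fold change above 1, by limma on log2(normalized reads + 1) in 1 fit over genes and repeats with a mean of at least 10. By this rule NSL1 RNAi raised 2889 and lowered 1854 of 9085 genes, NSL2 RNAi 682 and 94 of 8047, and NSL3 RNAi 2635 and 1295 of 8900. The targeted transcripts were lower in every knockdown library than in every white RNAi library, although none passed the fold threshold: wah (NSL1) had a log2 fold change of -0.88, dgt1 (NSL2) of -0.54 and Rcd1 (NSL3) of -0.92. The tissue label was checked against marker lists. Summed over 29 germline markers, NSL1 RNAi libraries held 6122 to 6641 reads per 1000000 assigned reads (RPM), NSL2 RNAi libraries 19679 to 21763, NSL3 RNAi libraries 5994 to 14135 and white RNAi libraries 24866 to 25513. Over 19 muscle markers, the range was 15520 to 19374 RPM in NSL1 RNAi, 234 to 351 in NSL2 RNAi, 16972 to 32684 in NSL3 RNAi and 172 to 235 in white RNAi. All 17 tested muscle markers were called higher in NSL1 and in NSL3 RNAi, and 6 of 17 in NSL2 RNAi. Over 13 hemocyte markers the sums were 5056 to 6349 RPM in NSL1 RNAi, 348 to 364 in NSL2 RNAi, 6227 to 11630 in NSL3 RNAi and 348 to 381 in white RNAi. Neuron markers summed to 66.2 to 70.7 RPM in NSL1 RNAi, 17.2 to 25.5 in NSL2 RNAi, 63.9 to 111 in NSL3 RNAi and 4.32 to 5.48 in white RNAi. All 5 tested neuron markers were called higher in NSL1 RNAi, all 4 in NSL3 RNAi and 1 of 2 in NSL2 RNAi. At most 2 muscle, 3 hemocyte and 4 of 10 neuron markers were at 0 in a library. The part of these cells in the chorion results was not tested.

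Chorion transcripts were most abundant in NSL2 RNAi. Together the 9 genes took 1.68%, 2.65% and 1.70% of all assigned reads in the 3 NSL2 RNAi libraries, against 0.0536%, 0.114% and 0.321% in white RNAi. NSL1 RNAi libraries gave 0.284%, 0.172% and 0.122%, and NSL3 RNAi libraries 0.734%, 0.321% and 0.243%. The exact (Clopper-Pearson) 95% intervals of these shares reach at most 0.00713 percentage points to either side, which covers counting error only. The spread between libraries is far larger than this. Within white RNAi, replicate 3 was the highest and replicate 1 the lowest library for all 9 genes, and the ratio of replicate 3 to the average of replicates 1 and 2 had a median of 4.48.

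**Figure D1:**
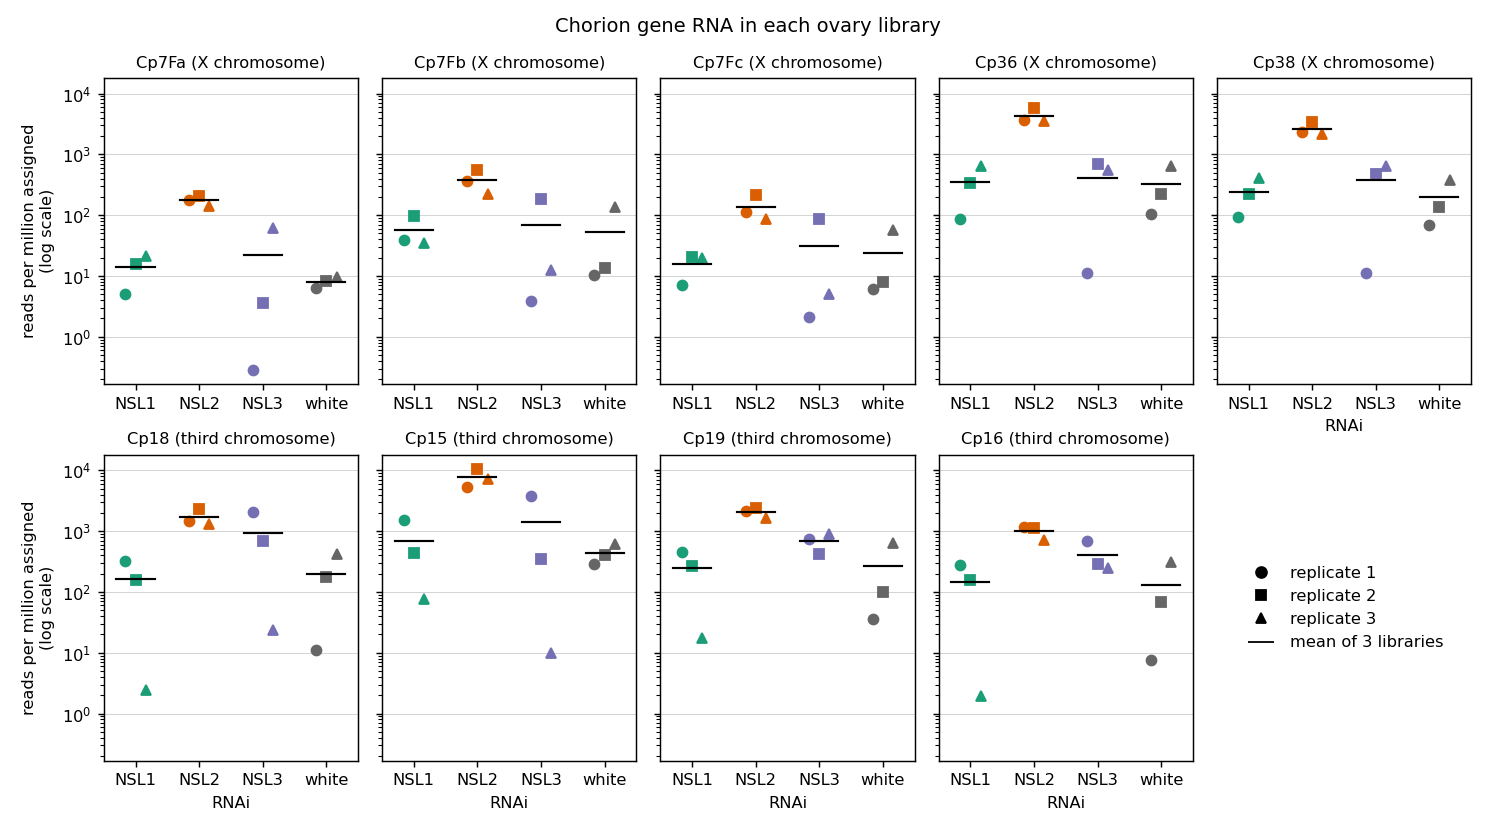
Reads per 1000000 assigned reads (RPM, log axis) of each chorion gene in the 3 libraries of NSL1, NSL2, NSL3 and white RNAi, with symbols for the replicate number and a bar at the group mean. The NSL2 RNAi points lie close together and above all white RNAi points in all 9 panels, while NSL1 and NSL3 RNAi points span up to 142-fold and 378-fold for a single gene.

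All 9 chorion genes were called higher in NSL2 RNAi, by 3.21 to 4.46 on the log2 scale, beside 8.48% of all genes tested called higher and 1.17% called lower. Their median log2 fold change was 4.12, and that of all genes was -0.04. In all 9, the lowest NSL2 RNAi library lay above the highest white RNAi library, which held for 23.4% of all genes.

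Cp36 and Cp38 encode major structural proteins of the chorion and are transcribed early in its formation. Cp36 had 3687, 5866 and 3490.2 RPM in NSL2 RNAi, against 104, 224 and 639.8 RPM in white RNAi. Cp38 had 2341, 3345 and 2179 RPM in NSL2 RNAi, against 69.1, 136 and 384 RPM in white RNAi. The groups were at least 5.45-fold apart in Cp36 and 5.67-fold in Cp38 at their nearest libraries. The log2 fold changes were 4.12 ± 0.57 (SE, adjusted p = 0.00204) and 4.09 ± 0.53 (adjusted p = 0.00154).

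The Cp7F genes are the other members of the X-linked cluster. Cp7Fa had 181, 209 and 139 RPM in NSL2 RNAi, against 6.32, 8.25 and 9.70 RPM in white RNAi. It gave the highest and most precise fold change of the 9, at 4.46 ± 0.19 (SE, adjusted p = 9.45e-06), and it was the one X-linked gene whose white RNAi libraries lay close together. Cp7Fb had 363, 553 and 227 RPM in NSL2 RNAi, against 10.2, 13.6 and 136 RPM in white RNAi. Cp7Fc had 113, 216 and 87.8 RPM in NSL2 RNAi, against 6.04, 7.95 and 56.6 RPM in white RNAi. In both, white RNAi replicate 3 stood well above the other control libraries, and the nearest libraries were only 1.67-fold and 1.55-fold apart. Their log2 fold changes were 3.76 ± 0.89 (adjusted p = 0.0162) for Cp7Fb and 3.21 ± 0.78 (adjusted p = 0.0178) for Cp7Fc.

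On 3L, Cp16 and Cp19 are the genes of middle choriogenesis. Cp16 had 1151, 1116 and 719 RPM in NSL2 RNAi, against 7.67, 68.6 and 314 RPM in white RNAi. Cp19 had 2175, 2438 and 1675 RPM in NSL2 RNAi, against 36.0, 101 and 650.4 RPM in white RNAi. The white RNAi libraries of these genes differed from each other by up to 41.0-fold, those of NSL2 RNAi by less than 2-fold. The log2 fold changes were 4.16 ± 1.12 (adjusted p = 0.0247) for Cp16 and 3.97 ± 0.88 (adjusted p = 0.0130) for Cp19.

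Cp15 and Cp18 are the late genes of the same cluster. Cp15 had 5307, 10474 and 7209 RPM in NSL2 RNAi, against 286, 403 and 605 RPM in white RNAi. Cp18 had 1467, 2278 and 1289 RPM in NSL2 RNAi, against 11.0, 175 and 417 RPM in white RNAi. The Cp15 controls stayed within 2.12-fold of each other, whereas Cp18 in white RNAi replicate 1 was far below the other libraries. The log2 fold changes were 4.18 ± 0.31 (adjusted p = 0.000116) for Cp15 and 4.15 ± 1.14 (adjusted p = 0.0266) for Cp18.

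Cp36, Cp38, Cp7Fa and Cp15 stayed called whichever of the 6 libraries was left out. The other 5 did not. Without white RNAi replicate 2, 4 of the 9 genes were called, and without NSL2 RNAi replicate 2, 5 were, the adjusted p of the lost genes lying between 0.0510 and 0.0780. Without white RNAi replicate 3, the library nearest to the knockdown, all 9 were called and the log2 fold changes ran between 4.22 and 5.42, beside 9.14% of all genes called higher in that fit. By edgeR on the recovered reads, 8 of 9 were called, with Cp16 at an adjusted p of 0.0548.

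**Figure D2:**
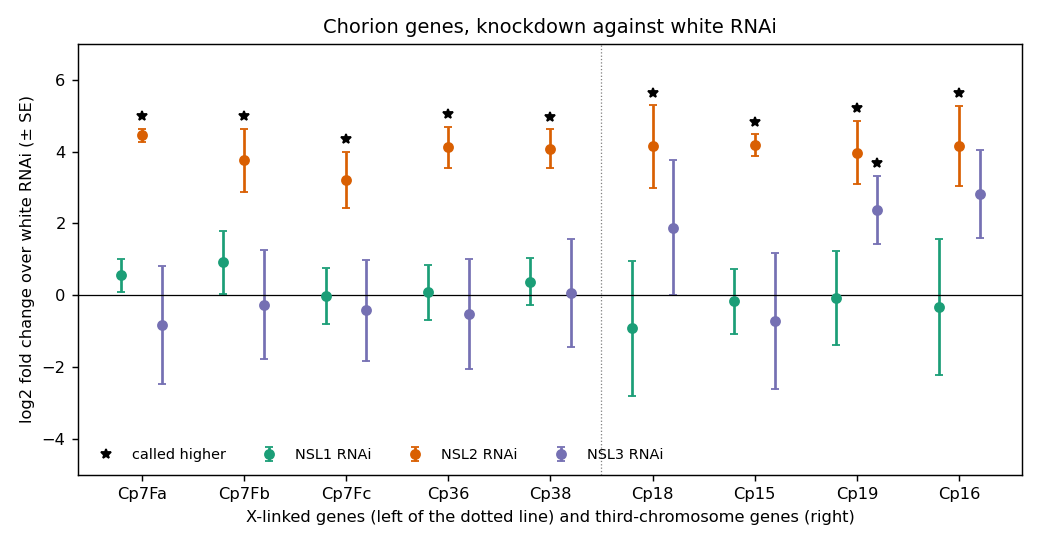
Log2 fold change over white RNAi of each chorion gene in NSL1, NSL2 and NSL3 RNAi (limma, bars are ± 1 SE), with X-linked genes left of the dotted line and stars on called genes. All 9 NSL2 RNAi values lie between 3.21 and 4.46, and of the 18 other values only Cp19 in NSL3 RNAi is called.

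None of the 9 chorion genes was called in NSL1 RNAi, where 31.8% of all genes were called higher and 20.4% lower. The log2 fold changes ran between -0.92 for Cp18 and 0.92 for Cp7Fb. None had an unadjusted p under 0.05 by limma, which 89.4% of all genes had, and none was called by edgeR or DESeq2. All 9 overlapped white RNAi. In 41.6% of genes all NSL1 RNAi libraries lay above all white RNAi libraries, and genes lying wholly below were not counted. The group mean hid libraries that differed in opposite ways. In replicates 1, 2 and 3, Cp36 had 87.8, 336 and 635 RPM and Cp38 had 94.1, 219.5 and 407 RPM. The third-chromosome genes were high in replicate 1 and very low in replicate 3: Cp15 had 1541, 442 and 76.6 RPM, and Cp18 had 325, 158 and 2.40 RPM. Cp16, with 280.1, 159 and 1.98 RPM, spanned 142-fold within the group. Cp19 behaved likewise, with 460.4, 272 and 17.4 RPM. Replicate 1 was the highest library for all 4 third-chromosome genes and the lowest for 4 of the 5 X-linked genes.

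The Cp7F genes were less spread in NSL1 RNAi. Cp7Fa had 5.10, 15.8 and 21.2 RPM, Cp7Fb 39.1, 98.6 and 35.3 RPM, and Cp7Fc 7.05, 20.6 and 19.5 RPM. All 3 overlapped the white RNAi values given above. Single libraries decided some outcomes: Cp7Fa was called higher without NSL1 RNAi replicate 1 (log2 fold change 1.15, adjusted p = 0.00129), and Cp7Fb without white RNAi replicate 3 (2.08, adjusted p = 0.00205), in a fit that called 32.8% of genes higher. Leaving out NSL1 RNAi replicate 3 turned the log2 fold changes of all 4 third-chromosome genes positive, to between 0.97 and 1.91, none of them called. With 3 libraries that differ this much, the standard errors of Cp16 and Cp18 were 1.89 and 1.87 on the log2 scale, so that a severalfold difference in either direction was not detectable in these genes.

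In NSL3 RNAi, Cp19 was the only chorion gene called, at a log2 fold change of 2.39 ± 0.95 (SE) and an adjusted p of 0.0499, beside 29.6% of all genes called higher and 14.6% lower. Cp19 had 753, 427 and 895 RPM in NSL3 RNAi, against the 36.0, 101 and 650.4 RPM of white RNAi. As in all 9 genes, the groups overlapped, with white RNAi replicate 3 above NSL3 RNAi replicate 2. Of all genes, 38.9% lay wholly above white RNAi, and those wholly below were not counted. The call was lost by edgeR (adjusted p = 0.185) and DESeq2 (0.196), and when any one of 4 of the 6 libraries was left out (adjusted p between 0.106 and 0.129). Cp16 had 693, 291 and 248 RPM and a log2 fold change of 2.82 ± 1.22 (adjusted p = 0.0655), and was called without white RNAi replicate 3 (4.06, adjusted p = 0.0111), in a fit that called 30.2% of genes higher.

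The late genes split the NSL3 RNAi libraries. Cp15 had 3813, 348 and 10.1 RPM, a span of 378-fold, and Cp18 had 2050.5, 695 and 24.1 RPM. Replicate 1 exceeded every white RNAi library in both genes and 2 NSL2 RNAi libraries in Cp18, while replicate 3 held less of Cp15 than any white RNAi library. Their log2 fold changes were -0.71 ± 1.90 and 1.89 ± 1.88, both uncalled.

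The X-linked genes ran the other way in the same libraries. Cp36 had 11.4, 689 and 544 RPM, and Cp38 had 11.3, 483 and 632 RPM. Cp7Fa had 0.283, 3.64 and 61.9 RPM, the lowest of these resting on 4 reads. Cp7Fb had 3.89, 187 and 12.6 RPM, and Cp7Fc had 2.12, 86.5 and 5.13 RPM. NSL3 RNAi replicate 1 was the lowest library for all 5, and below every white RNAi library for all 5. In replicate 3, Cp7Fa was high and Cp7Fb and Cp7Fc were low, although these genes neighbour each other. None of the 5 was called, with log2 fold changes between -0.83 and 0.06 and standard errors of 1.42 to 1.65. By edgeR 4 of these 5 values were positive that were negative by limma. Without NSL3 RNAi replicate 1, Cp38 was called higher (1.91, adjusted p = 0.0337), and without NSL3 RNAi replicate 3, Cp7Fa was called lower (-2.77, adjusted p = 0.0366).

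**Figure D3:**
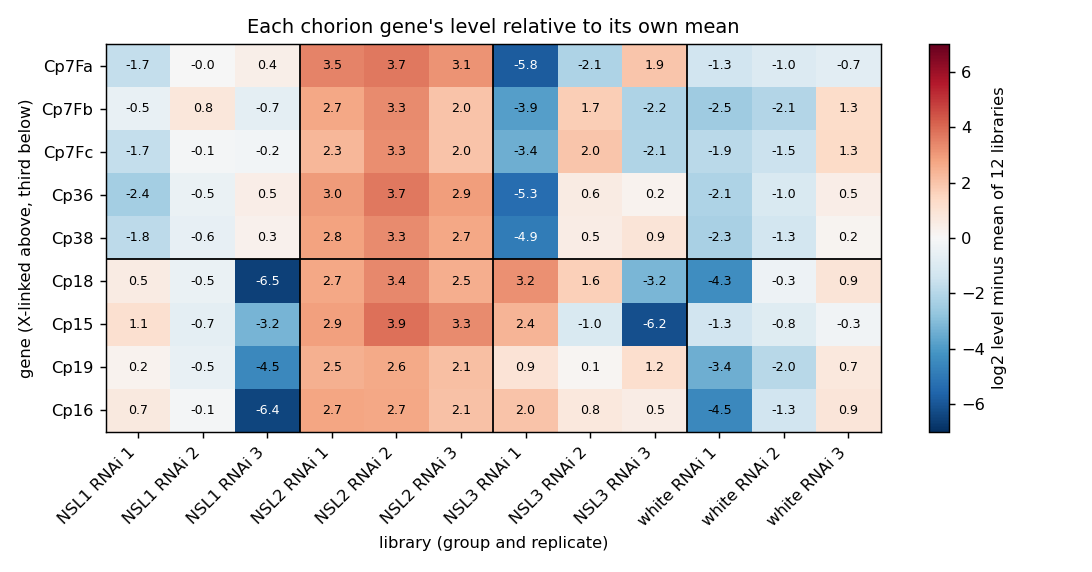
Log2 level of each chorion gene (rows, X-linked above the line) in each of the 12 libraries (columns), minus that gene's mean over all 12, with the value printed in each cell. The NSL2 RNAi columns are red throughout, between 1.97 and 3.86, while NSL1 RNAi replicate 3 lies between -6.54 and -3.23 in the third-chromosome genes and between -0.68 and 0.46 in the X-linked genes, and NSL3 RNAi replicate 1 between -5.82 and -3.40 in the X-linked genes and between 0.94 and 3.21 in the third-chromosome genes.

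The comparison of the clusters asked whether X-linked and third-chromosome chorion genes changed by the same amount. In NSL2 RNAi they did not differ beyond the replicate spread. The mean log2 fold change was 3.93 over the 5 X-linked genes and 4.11 over the 4 third-chromosome genes, a difference of -0.19 with a replicate SD of 0.64. Its sign turned by edgeR (0.18), by DESeq2 (0.18) and without white RNAi replicate 1 (0.32), and without white RNAi replicate 2 it was -0.49. The X-linked cluster held 39.8%, 38.5% and 36.0% of the chorion reads in the NSL2 RNAi libraries, against 36.5%, 34.2% and 38.2% in white RNAi. This share of reads weights each gene by its length and level. It lay between 34.2% and 39.8% in all 6 libraries, but Cp15 alone gave 6144 of the 7320 third-chromosome reads in white RNAi replicate 1. With the genes weighted equally, the mean log2 RPM of the X-linked minus the third-chromosome genes was -1.87, -1.71 and -1.98 in NSL2 RNAi, against -0.65, -2.28 and -2.08 in white RNAi, so that white RNAi replicate 1 stood apart.

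In the other knockdowns the X-linked share of reads was 8.21%, 40.1% and 91.9% in NSL1 RNAi, and 0.395%, 45.1% and 51.6% in NSL3 RNAi. Replicate 2 was the library nearest to the control shares in both knockdowns. Summed over the X-linked genes, NSL3 RNAi replicate 1 had 29.0 RPM, against 196, 389 and 1226 RPM in white RNAi. The third-chromosome sum in that library was 7310.0 RPM, against 340.3, 748 and 1987 RPM in white RNAi. NSL1 RNAi replicate 3 showed the opposite pairing, with 1118 RPM from the X-linked and 98.4 RPM from the third-chromosome genes. The differences between clusters in mean log2 fold change were 0.75 in NSL1 RNAi, with a replicate SD of 2.76, and -1.99 in NSL3 RNAi, with a replicate SD of 3.26, neither larger than the spread. Single libraries turned both: the NSL1 RNAi difference was -1.30 without NSL1 RNAi replicate 3 and 2.44 without replicate 1, and the NSL3 RNAi difference was 0.56 without NSL3 RNAi replicate 1. By edgeR they were 0.027 and -1.08. The largest 95% interval of an X-linked share reached 0.883 percentage points to either side.

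**Figure D4:**
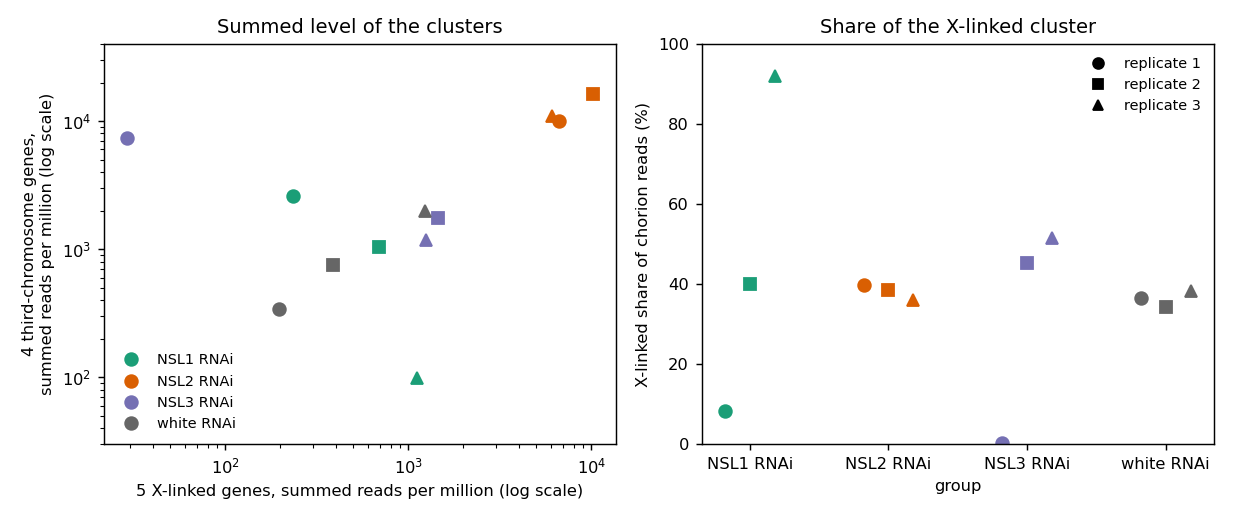
Left, summed RPM of the 5 X-linked against the 4 third-chromosome chorion genes in each library (log axes), with colours for the group and symbols for the replicate number. Right, the X-linked share of chorion reads, which lies between 34.2% and 39.8% in all NSL2 and white RNAi libraries and between 0.395% and 91.9% in the others.

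Gene pairs within a library were used to see which chorion genes moved together over all 12 libraries. Cp36 and Cp38, neighbours and both early, kept the closest ratio of the 36 pairs, with an SD of 0.36 on the log2 scale, while each gene alone varied with an SD of 2.56 and 2.37. Cp7Fb and Cp7Fc came next (SD 0.56), and then Cp16 and Cp19 (SD 0.84), which also adjoin each other on 3L. The loosest pair was Cp7Fa and Cp18 (SD 4.14). The median SD was 1.19 over the 10 pairs within the X-linked cluster, 1.84 over the 6 pairs within the third-chromosome cluster and 2.96 over the 20 pairs between clusters. Being in 1 cluster was not enough for a close ratio: Cp15 and Cp16 had an SD of 2.58 and Cp7Fa and Cp7Fb one of 2.08. These SDs run over all 12 libraries and need not hold within a group. Within NSL2 RNAi alone, Cp7Fa with Cp19 (SD 0.024) and Cp36 with Cp18 (SD 0.055), both between clusters, were closer than Cp36 with Cp38 (SD 0.083). Within white RNAi alone, Cp36 with Cp38 was the closest pair (SD 0.081). All of these ratios share the libraries and are given as a description.

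The knockdowns were also set against each other, with the reads of all libraries scaled together, a comparison added after the data had been seen. All 9 chorion genes were called higher in NSL2 RNAi than in NSL1 RNAi, where 11.7% of genes were higher and 30.4% lower, by 2.63 (Cp7Fb) to 4.86 (Cp18) on the log2 scale. By edgeR 8 were called, Cp16 having an adjusted p of 0.0549, and 7 to 9 were called when a library was left out. Between NSL2 and NSL3 RNAi, 7 were called higher in NSL2 RNAi, beside 7.86% of genes higher and 27.6% lower, but only Cp19 and Cp36 by edgeR, and 1 to 8 when a library was left out. Cp15 (4.73 ± 1.85, adjusted p = 0.0525) and Cp18 (2.10 ± 1.43, adjusted p = 0.222) were not called. No gene of the 9 was called between NSL3 and NSL1 RNAi by limma or edgeR, and none had an unadjusted p under 0.05 by limma, while 3.98% of genes were called higher and 5.41% lower. Without NSL3 RNAi replicate 2, 2 were called lower in NSL3 RNAi, Cp7Fb and Cp7Fc. In the order of mean RPM, NSL2 RNAi came first for all 9 genes. NSL3 RNAi came second in mean RPM, but on the log2 scale of the tests it lay below NSL1 RNAi for 6 genes and below white RNAi for 5, none of these differences called. The libraries of NSL1 and of NSL3 RNAi overlapped those of white RNAi in every gene, and of these differences only that of Cp19 in NSL3 RNAi was called. In 8 of the 9 genes, all NSL2 RNAi libraries lay above all 9 other libraries, which held for 5.69% of genes, and Cp18 was the exception through NSL3 RNAi replicate 1.

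Genes beside the clusters were examined to see whether the change extended past the chorion genes. The 4 nearest genes on each side and any overlapping one were taken by their order in the RefSeq Release 6 annotation, a rule chosen after the data had been seen. The X-linked genes lie in the order Cp7Fa, Cp7Fb, Cp7Fc, Cp36, Cp38. Beyond Cp38, the noncoding CR43834 had 1.75, 2.82 and 1.34 RPM in NSL2 RNAi, against 0.0930, 0.130 and 0.0480 RPM in white RNAi, and was called higher (adjusted p = 0.000850). These values rest on 26, 55 and 28 reads in NSL2 RNAi, against 2, 3 and 1 reads in white RNAi, so no fold is given. The next gene, otu, which is required in germ cells for oogenesis, had 519, 507 and 456 RPM in NSL2 RNAi, against 498, 503 and 519 RPM in white RNAi (log2 fold change -0.02 ± 0.07). On the other side, CG12116 was called higher in NSL2 RNAi at 1.25 ± 0.40 (adjusted p = 0.0439), and by more in NSL1 RNAi (2.90) and NSL3 RNAi (1.73). In NSL2 RNAi Sptr, Es2 and CG15347 were not called, nor were CG33181 and Nrg beyond otu. CG33223 spans the whole X-linked cluster in the annotation, so reads there could have been split between genes, but it held at most 1.59 RPM in any library.

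On 3L the order is Cp18, Cp15, Cp19, Cp16. CG43965, which the annotation places second on the Cp18 side, had 169, 183 and 118 RPM in NSL2 RNAi, against 2.88, 4.13 and 9.17 RPM in white RNAi. The groups did not overlap, and its log2 fold change of 5.01 ± 0.38 (adjusted p = 0.000154) was above that of every chorion gene. In NSL3 RNAi it had 0.991, 1.52 and 21.5 RPM, a set of values ordered like those of Cp7Fa and unlike those of its neighbour Cp18. The genes around it, CG6511, CG32022 and SrpRbeta, had log2 fold changes between -0.15 and -0.07 in NSL2 RNAi and were not called. On the Cp16 side, Prm, the paramyosin of muscle thick filaments, had 15.8, 18.1 and 9.37 RPM in NSL2 RNAi, against 5.95, 6.91 and 5.72 RPM in white RNAi, and was called higher at 1.18 ± 0.24 (adjusted p = 0.0103). Prm was called higher by more in NSL1 RNAi (5.92) and NSL3 RNAi (6.43). Fhos was not called and CG13306 was below the minimum level.

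The other eggshell genes give the context for the chorion genes. Of 21 genes on this list 20 passed the filter, Pxd being near 0. In NSL2 RNAi 16 of them were called higher and none lower, beside 8.48% and 1.17% of all genes. The median log2 fold change of the 20 was 4.02. The vitelline membrane genes, which follicle cells transcribe before the chorion genes, included the 3 highest values, those of Vm32E, Vm26Ac and Vml. Vm32E had 305, 635 and 203 RPM in NSL2 RNAi, against 0.279, 0.174 and 10.2 RPM in white RNAi (8.56 ± 1.30, adjusted p = 0.00310). Vm26Aa, Vm26Ab, Vm26Ac, Vm34Ca and Vml, along with dec-1, psd and ndl, which act in the same layer, rose by 3.01 to 7.55. The late eggshell genes yellow-g and yellow-g2, whose products belong to a family that hardens cuticle and eggshell, rose by 4.03 ± 0.67 and 4.00 ± 0.75. The chorion-associated Femcoat, Fcp3C, Muc4B and Muc12Ea rose by 3.47 to 5.94, and tsl, which marks the embryo's termini from follicle cells, by 1.67 ± 0.32.

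The 4 uncalled genes of the list were clos, fs(1)N, fs(1)M3 and Pxt. The first 3 encode eggshell proteins that the germline supplies. Their differences missed the fold threshold: they had log2 fold changes of -0.27 ± 0.08, -0.24 ± 0.06 and 0.27 ± 0.07 in NSL2 RNAi, and Pxt, a peroxidase needed for follicle maturation, one of 0.07 ± 0.07. All 4 were called lower in NSL1 RNAi, with log2 fold changes of -2.70 to -1.26, and in NSL3 RNAi, with -1.78 to -1.35. Of all genes, 20.4% were called lower in NSL1 RNAi and 14.6% in NSL3 RNAi.

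In NSL1 RNAi, vitelline membrane genes were called higher although no chorion gene was: all 6 Vm and Vml genes, dec-1, psd, ndl and tsl were called higher, by 3.06 to 5.87. In that fit 31.8% of all genes were called higher. Vm32E had 56.6, 60.5 and 48.7 RPM in NSL1 RNAi, and 0.849, 135 and 75.7 RPM in NSL3 RNAi, against the white RNAi values above. Thus the 3 NSL1 RNAi libraries were alike in Vm32E and far apart in the chorion genes. In NSL3 RNAi, replicate 1 was the lowest library of its group for all of these Vm and Vml genes, as it was for the X-linked chorion genes. Its place against white RNAi differed. For the X-linked chorion genes this library lay below every white RNAi library. For the Vm and Vml genes it lay above every white RNAi library other than replicate 3. For Vm26Ab it exceeded white RNAi replicate 3 too (11.7 against 7.35 RPM). Of the 20 eggshell genes, 8 were called higher in NSL3 RNAi, beside 29.6% of all genes. Without white RNAi replicate 3, 12 were, beside 30.2% of all genes.

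Among the other eggshell genes, some on each chromosome had the library order of the chorion cluster on the other one. The genes yellow-g and yellow-g2 are on 3L, yet in NSL1 RNAi replicates 1, 2 and 3 yellow-g2 had 6.11, 54.9 and 108 RPM, the same order as the X-linked Cp36. Femcoat, Fcp3C and Muc12Ea are on the X, yet Femcoat had 46.8, 30.5 and 6.89 RPM, the same order as the third-chromosome Cp15. Muc4B, also on the X, had 0.201, 0.896 and 2.81 RPM, the order of Cp36. In NSL3 RNAi, yellow-g2 had 0.708, 170.2 and 2.80 RPM, the same order as the X-linked Cp7Fb, whereas Femcoat, with 132, 49.1 and 63.0 RPM, did not follow the order of Cp15 there. These values were picked out after they had been seen and carry no test.

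Yp1, Yp2 and Yp3 encode yolk proteins made in fat body and follicle cells, and were called higher in all knockdowns. Their log2 fold changes were 2.72 to 3.48 in NSL1 RNAi, 3.00 to 3.13 in NSL2 RNAi and 1.77 to 2.64 in NSL3 RNAi. Of all genes, 31.8%, 8.48% and 29.6% were called higher in these knockdowns. Fat body markers summed to 3661 to 4724 RPM in NSL1 RNAi, 694 to 1064 in NSL2 RNAi, 1327 to 2498 in NSL3 RNAi and 513 to 654 in white RNAi, and their part in the yolk gene values was not tested. At most 4 of 12 fat body markers were at 0 in a library.

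**Figure D5:**
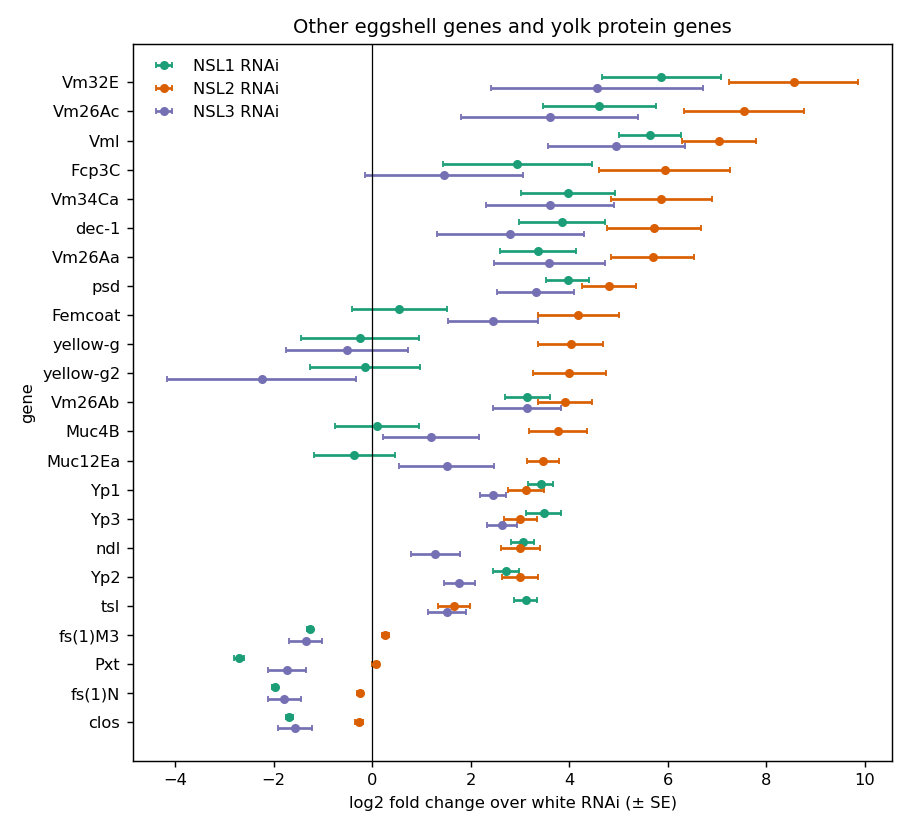
Log2 fold change over white RNAi (limma, bars are ± 1 SE) of the other eggshell genes and the yolk protein genes, ordered by their value in NSL2 RNAi. In NSL2 RNAi 16 of 20 eggshell genes lie between 1.67 and 8.56 and the 4 others between -0.27 and 0.27.

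None of the listed genes that act on chorion amplification was called higher with the chorion genes. Of 21 tested genes for origin licensing and firing (the origin recognition complex, Mcm2 to Mcm7, the loading factor dup and others), none was called in NSL2 RNAi by limma, with log2 fold changes between -0.51 and 0.19. Their median was -0.32, beside -0.04 over all genes. Several of the lower ones missed only the fold threshold, such as geminin (-0.43 ± 0.08, adjusted p = 0.00641 by limma). In NSL1 RNAi 20 of the 21 and in NSL3 RNAi 19 were called lower, beside 20.4% and 14.6% of all genes. The lowest were Orc1 at -2.54 and Orc2 at -2.17. Of 12 genes of the E2F and Myb complexes, which control these origins in follicle cells, none was called in NSL2 RNAi. Their median log2 fold change there was -0.27, again with several that missed only the fold threshold. In NSL1 RNAi and in NSL3 RNAi 8 of the 12 were called lower. These genes are also expressed in the germline, whose markers moved in the same direction as given above. Of 15 regulators of late follicle cells, 1 was called in NSL2 RNAi, beside 8.48% of all genes called higher. This was slbo, a C/EBP factor of migrating and late follicle cells. It rested on 12, 45 and 23 reads in NSL2 RNAi, against 2, 6 and 5 in white RNAi, so no fold is given. Without white RNAi replicate 3, 4 of the 15 were called higher, beside 9.14% of all genes. In NSL1 RNAi 8 were called higher and 3 lower, beside 31.8% and 20.4% of all genes. The highest there was Blimp-1, an ecdysone-responsive repressor, which averaged 452 ± 63.3 normalized reads in NSL1 RNAi and 9.93 ± 2.92 in white RNAi (SD, n = 3 each). In NSL3 RNAi 6 of 14 tested were called higher and 0 lower, beside 29.6% and 14.6% of all genes. Blimp-1 was the highest there too, with 785 ± 193 normalized reads against 9.04 ± 2.62 in white RNAi (SD, n = 3 each). Of the main follicle cell markers, summed levels were 2503 to 2700 RPM in NSL1 RNAi, 801 to 896 in NSL2 RNAi, 1568 to 1981 in NSL3 RNAi and 745 to 829 in white RNAi. In NSL2 RNAi 4 of 18 tested were called higher, beside 8.48% of all genes. In NSL1 RNAi 15 of 20 were called higher and 1 lower, beside 31.8% and 20.4% of all genes. In NSL3 RNAi 11 of 19 were called higher and 1 lower, beside 29.6% and 14.6%.

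The 5 genes most like the chorion genes were those with the highest Pearson r to the mean log2 level of the 9, among 9090 genes over the 12 libraries. They were CG15221 (r = 0.95), blos2 (0.92), Obp19c (0.90), CG10407 (0.90) and l(2)35Bc (0.89). The 12 libraries share their groups, and without the NSL2 RNAi libraries these values were 0.58 to 0.78. Obp19c, named as an odorant-binding protein, had 175, 291 and 142 RPM in NSL2 RNAi, against 3.02, 6.12 and 43.8 RPM in white RNAi, and was called higher at 4.38. CG10407 (3.94) and CG15221 (2.61) were also called in NSL2 RNAi. The genes blos2 and l(2)35Bc had log2 fold changes of 0.62 and 0.69 in NSL2 RNAi, which did not pass the fold threshold.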

How the data were processed

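RNA-seq of ovaries was analysed from 3 tables, each with 3 knockdown and 3 white RNAi libraries. The deposited values are a signal that the authors made by dividing read counts by DESeq2 size factors, after rRNA removal, alignment to dm3 with STAR and counting with featureCounts or eXpress (piPipes). The study's methods name ERCC spike-ins for scaling, but the tables hold no spike-in rows. The strand setting of counting was not given in the sources used here. Within a tolerance of 1e-06 of a whole number, 100% of the values gave whole reads, from which RPM were computed.

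Each table was tested alone with limma 3.58.1 (trend; R 4.3.3) on log2(value + 1), for features with a mean of at least 10, with Benjamini-Hochberg adjustment. Calls needed an adjusted p under 0.05 and an absolute log2 fold change above 1. Since the 3 comparisons share the white RNAi libraries, they are not independent. An exact permutation test of 3 against 3 cannot go below p = 0.10. Count models fitted to the whole reads (DESeq2 1.42.0, and the quasi-likelihood test of edgeR 4.0.16), other scalings, pseudocounts and minimum levels, a replicate block and leaving out each library were the alternatives. The fit was tested on simulated data, with changed genes drawn at random from all genes and the spread of each gene capped. Of 100 genes changed 3-fold it called 94, 90 and 85 with the capped spread of the NSL1, NSL2 and NSL3 RNAi tables. These counts do not hold for chorion genes with a larger spread, such as Cp16 in NSL1 RNAi (SE 1.89).

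The members and gene lists were chosen with earlier results of these data known. Named genes are the 9 members, the eggshell list by role, the targeted genes, the list extremes and the 5 genes most like the members. Neighbouring genes and the library patterns of yellow-g2, Femcoat and Muc4B were added after the data had been seen. Chromosomes and gene order come from RefSeq Release 6, to which 15216 of 15342 gene names matched. No gene lengths were used. Cluster shares, cluster differences and gene ratios are therefore compared between libraries, and do not rank the levels of genes.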

Additional observations from a re-analysis of the deposited data

How the results depend on the processing

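All 9 chorion genes were called higher in NSL2 RNAi under every scaling, pseudocount and minimum level tried and by DESeq2, and 8 by edgeR. Leaving out 1 library gave 4 to 9 called in NSL2 RNAi, 0 to 1 in NSL1 RNAi and 0 to 2 in NSL3 RNAi. The single NSL3 RNAi call, Cp19, became 0 with TMM, total assigned reads (an alternative added after seeing the data), a pseudocount of 0.5, a minimum of 50, edgeR and DESeq2. Without the fold threshold, 8095 genes were called in NSL1 RNAi, 2795 in NSL2 RNAi and 7134 in NSL3 RNAi, and a minimum of 50 left 479 in NSL2 RNAi.

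In NSL1 RNAi the uncalled log2 fold changes turned sign for Cp7Fc with median of ratios over genes (0.13) and total assigned reads (0.018), for Cp19 with median of ratios (0.073), for Cp15 with edgeR (0.65) and DESeq2 (0.65), and for Cp16 with edgeR (0.16) and DESeq2 (0.17). In NSL3 RNAi they turned with edgeR and DESeq2 for Cp36 (0.44 by both), Cp7Fa (1.52 and 1.53), Cp7Fb (0.42 by both), Cp7Fc (0.48 and 0.47), Cp15 (1.81 by both) and yellow-g2 (0.11 by both), and for Cp38 with total assigned reads (-0.019). The cause was not tested. Leaving out 1 library moved NSL1 RNAi values between -0.55 and 0.87 for Cp36, -0.19 and 1.03 for Cp38, -0.61 and 0.98 for Cp7Fc, -1.20 and 0.97 for Cp15, -1.74 and 1.91 for Cp16, -2.46 and 1.25 for Cp18, and -1.01 and 1.38 for Cp19. In NSL3 RNAi the ranges were -1.54 to 1.38 for Cp36, -0.97 to 1.91 for Cp38, -2.77 to 0.97 for Cp7Fa, -1.82 to 0.92 for Cp7Fb, -1.96 to 0.65 for Cp7Fc and -2.73 to 1.56 for Cp15. The difference between clusters ranged over these fits between -1.30 and 2.44 in NSL1 RNAi, -0.49 and 0.32 in NSL2 RNAi, and -3.65 and 0.56 in NSL3 RNAi. Median of ratios over genes shifted the median of all genes by 0.15 in NSL1 RNAi and 0.11 in NSL3 RNAi.

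Deviations from the group mean had correlations between -0.44 and 0.22 for libraries of the same number, and between -0.39 and 0.36 for other pairs. Since deviations from a mean of 3 libraries sum to 0, this check cannot decide whether the numbers pair the samples. With the replicate number as a block, 4745, 725 and 3927 genes were called in NSL1, NSL2 and NSL3 RNAi, of them 0, 9 and 1 chorion genes and 14, 16 and 14 other eggshell genes.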
